A study of Mus musculus with 6 samples.

Results

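The genes described here are the mouse zinc-finger genes named Zfp700 to Zfp999, that is Zfp followed only by a number in that range. They were taken by symbol from the deposited count table, and 107 of its 35976 genes carried such a name. The number in the symbol is a label and not a family, and the rule reads only the symbol. Polyadenylated RNA had been sequenced from embryonic chondrocytes, the cells that make cartilage matrix. The cells came from hind limb articular cartilage of mice of strain C57BL/6 x 129S4/SvJae at embryonic day 18.5 and had been expanded as a monolayer on plastic for 16 population doublings. Both groups carried an H3.3 transgene (H3.3 is a variant of histone H3) that was switched on with doxycycline at 2 µg/ml. In the H3K9M group (replicates 1, 3 and 5) the transgene encoded methionine in place of lysine 9, and the labels give methylation of that residue as suppressed. In the H3WT group (replicates 1, 2 and 4) it encoded the unchanged histone. The labels do not say whether replicates came from separate embryos or cultures, so the p-values measure the spread between these 6 libraries, which may be technical in part.

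Zinc-finger proteins of the C2H2 kind hold DNA with a row of fingers, each a short loop folded around a zinc ion. Many of them begin with a KRAB domain, which recruits the corepressor TRIM28. TRIM28 in turn brings SETDB1, an enzyme that methylates lysine 9 of histone H3, and HP1 proteins, which bind that mark, so that retroviral elements and other targets are silenced. KRAB zinc-finger genes lie in clusters of related copies, and in many cell types the bodies of these genes carry the same H3K9 methylation mark themselves. A group with suppressed H3K9 methylation therefore bears both on the targets of these proteins and on the genes that encode them.

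Total counts per library ran from 15113675 to 19606082, and the members took between 0.102% and 0.126% of them. Between 96 and 99 of the 107 members had at least 1 count in a library. The filter on low counts left 13761 genes for testing, 93 of them members. All 8 chondrocyte markers were tested, and their summed level was 7287 to 11368 CPM in H3K9M and 7182 to 18698 CPM in H3WT (CPM are counts scaled to a common library size with TMM factors). Their log2 fold changes (log2FC, H3K9M over H3WT) were all below 0, from -1.89 in Col9a1 to -0.22 in Comp, but the groups overlapped for each of the 8 and none passed the adjusted test in edgeR. Without H3WT replicate 2, the library with the highest sum, 2 of the 8 lay above 0, and without H3K9M replicate 3 it was 1. The macrophage and blood markers Ptprc, Adgre1 and Hbb-bs and the endothelial marker Cdh5 were at 0 counts in all 6 libraries. Markers of striated muscle were present, and 4 of the 5 lay higher in every H3K9M library than in any H3WT library. Their sum was 73.3, 127.7 and 12.4 CPM in H3K9M replicates 1, 3 and 5 and 26.8, 4.31 and 24.1 CPM in H3WT replicates 1, 2 and 4. The sum of the 5 macrophage and blood markers was 6.16 to 14.9 CPM against 3.37 to 4.32 CPM, all of it from Cd68 and Csf1r, and that of the 4 endothelial markers was 0.306 to 0.628 CPM against 0.104 to 0.825 CPM. In bulk RNA, fewer cells of a type and less RNA per cell cannot be told apart. Whether the reads of these other markers came from other cells or from the chondrocytes themselves was not tested, nor was their part in the results below.

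No member passed the test. The count with an adjusted p under 0.05 was 0 of 93 (edgeR quasi-likelihood test, Benjamini-Hochberg adjustment over all genes tested), and it was 0% of all 13761 genes as well. The DESeq2 Wald test, an alternative, called 1 member, Zfp808, and 2.83% of all genes. At an unadjusted p under 0.05 there were 3 members, Zfp808 higher and Zfp839 and Zfp703 lower in H3K9M, a smaller share than the 12.2% among all genes tested (6.42% higher and 5.77% lower). That count was 9 without H3WT replicate 2 (17.1% of all genes), 6 without H3WT replicate 4 (9.14%) and 1 without H3K9M replicate 1 (8.48%), without H3WT replicate 1 (8.78%) or with library size alone as the scaling (12.1%). Zfp808 was among the members counted in each of these fits. The values of the groups did not overlap in 13 of the 93, against 19.4% of all genes. Of these, 4 lay higher in H3K9M (Zfp808, Zfp954, Zfp960 and Zfp961) and 9 lower (Zfp746, Zfp768, Zfp777, Zfp800, Zfp811, Zfp839, Zfp871, Zfp873 and Zfp948), where the shares over all genes were 10.7% and 8.68%. A difference of at least 2-fold was fitted in 3 members, Zfp808, Zfp811 and Zfp873, against 9.3% of all genes.

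The members lay on both sides of 0. Their log2FC was above 0 in 49 and below 0 in 44, and 49.6% of all genes tested lay above 0. The median was 0.02 with quartiles of -0.20 and 0.21, against quartiles of -0.24 and 0.26 over all genes. The median was below 0 in 4 of 14 fits: with a length and GC offset (-0.06, with 33 above 0 and 60 below) and without H3K9M replicate 3 (-0.09, with 40 above and 55 below), H3WT replicate 1 (-0.03) or H3WT replicate 2 (-0.02). The 222 tested genes named Zfp1 to Zfp699 had a median of -0.02, with 106 above 0 and 116 below, and 20 of them had an unadjusted p under 0.05. Summed over all 107 members the level was 1034, 1175 and 1119.9 CPM in H3K9M replicates 1, 3 and 5 and 1113, 1129 and 1235 CPM in H3WT replicates 1, 2 and 4. The means were 1109.7 ± 71.4 and 1159 ± 66.5 CPM (SD, n = 3 each), a ratio of 0.957, and the groups overlapped.

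**Figure D1:**
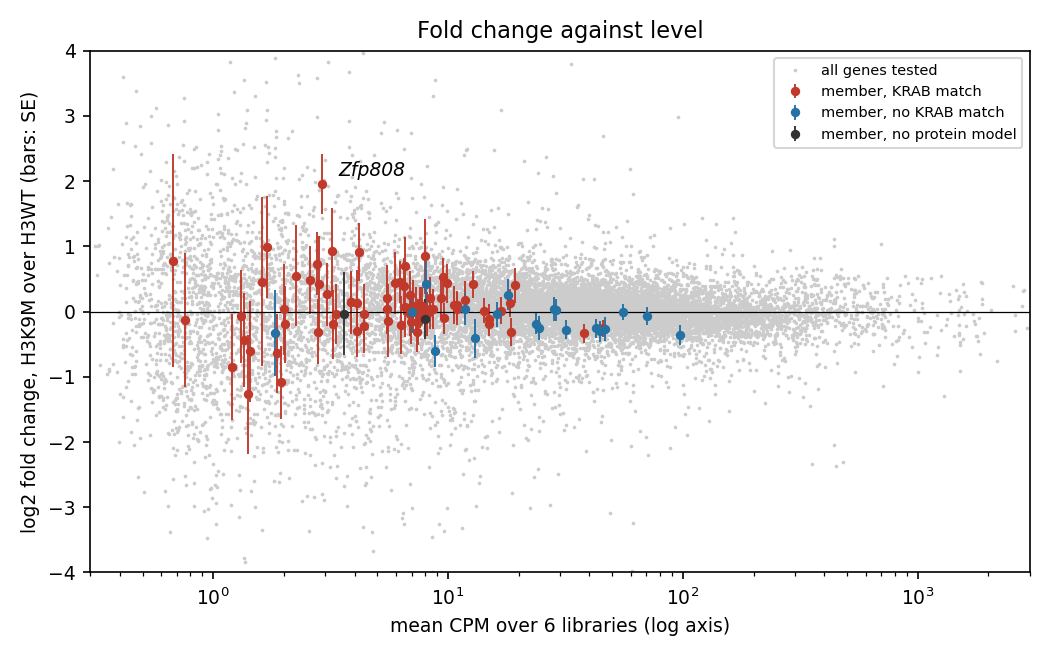
Log2FC (H3K9M over H3WT) of each tested gene against its mean CPM over 6 libraries (log axis). Grey points are all genes tested, of which 49 lie beyond the plotted range, and coloured points with SE bars are the 93 tested members, with red for a KRAB match, blue for none and black for no protein model. Most members lie near 0, the bars widen at low levels, and Zfp808 stands highest at 1.95.

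Zfp808, a KRAB gene with 22 fingers on chromosome 13 (chr13:62129857-62173938, GRCm38), had the smallest p of the members. Its level was 4.09, 4.88 and 4.90 CPM in H3K9M replicates 1, 3 and 5 and 1.12, 1.04 and 1.41 CPM in H3WT replicates 1, 2 and 4. These are 61, 101 and 96 reads against 20, 20 and 24. Every H3K9M library lay well above every H3WT library, and within each group the libraries lay close together. The fitted difference was 3.87-fold, a log2FC of 1.95 (SE 0.46, p 0.00266 before and 0.212 after Benjamini-Hochberg adjustment in edgeR). DESeq2 gave the same log2FC with an adjusted p of 0.00548. With limma-voom the adjusted p was 0.267, and leaving out 1 library at a time kept the log2FC between 1.87 and 2.09. The length and GC offset lowered the log2FC to 1.64 (edgeR adjusted p 0.368).

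Reads of Zfp808 could be shared with near copies. Its transcript was 95.3% identical to that of Gm3325 over 1296 bases, 96.3% identical to that of Zfp934 over 990 bases and 97.6% identical to that of Gm49357 over 375 bases. Gm3325, its nearest tested neighbour on the chromosome, had 7.97, 11.5 and 8.37 CPM in H3K9M and 7.58, 5.40 and 6.89 CPM in H3WT. Its groups did not overlap either, but the log2FC was 0.49 (SE 0.29, edgeR adjusted p 0.526). Zfp934, about as similar in sequence, stood at -0.19 (SE 0.53), and the KRAB gene Zfp935 near it at -0.03 (SE 0.33). Gm3604, another KRAB gene of the stretch, stood at 0.90 (SE 0.67, edgeR adjusted p 0.627), with overlap. Of the 8 tested genes of this stretch, Zfp808 was the one with an unadjusted p under 0.05.

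The 300 bases around the start of a gene show how the members differ in CpG content, the dinucleotide at which most DNA methylation of mammals is found. Of the members, 95 had a promoter in the RefSeq table (GRCm38.p6, 250 bases before the start and 50 after). Their median number of CG pairs was 10, against 7 over all 27025 promoters, and the motif CG reads the same on both strands. Among members with a KRAB match the median was 9 and 44.7% held at least 10, close to the 43.9% of all promoters. Among members without one the median was 24 and 88.2% held at least 10. Promoters of 2 KRAB members, Zfp808 (chr13:62129640-62129939, plus strand, 8 pairs) and Zfp873 (chr10:82047873-82048172, plus strand, 6 pairs), are set here. Beside them are those of Zfp839, which has no KRAB match (chr12:110850029-110850328, plus strand, 24 pairs), and Zfp777, a KRAB gene with a dense promoter (chr6:48047745-48048044, minus strand, 51 pairs). These promoters are shown because the 4 members are among those with the smallest p in either direction. The pair counts of Zfp808 and Zfp873 lie between the quartiles over all promoters, 3 and 21. For Zfp777 the window lies inside the gene's listed span (chr6:48017660-48050004) and not at its outer end. Capitals mark each CG pair.
Zfp808: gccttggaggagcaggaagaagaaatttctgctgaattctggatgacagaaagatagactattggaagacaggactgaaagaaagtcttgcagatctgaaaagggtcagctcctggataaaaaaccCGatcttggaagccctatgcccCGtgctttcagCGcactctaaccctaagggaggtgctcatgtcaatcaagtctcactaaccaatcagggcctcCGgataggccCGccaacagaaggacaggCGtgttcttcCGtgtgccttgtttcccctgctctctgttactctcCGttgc
Zfp873: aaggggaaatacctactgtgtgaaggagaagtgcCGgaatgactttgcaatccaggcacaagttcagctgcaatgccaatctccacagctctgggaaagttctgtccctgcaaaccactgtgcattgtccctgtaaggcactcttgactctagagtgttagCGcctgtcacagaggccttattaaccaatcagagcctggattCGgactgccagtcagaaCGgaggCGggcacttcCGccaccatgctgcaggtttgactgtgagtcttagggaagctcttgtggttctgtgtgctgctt
Zfp839: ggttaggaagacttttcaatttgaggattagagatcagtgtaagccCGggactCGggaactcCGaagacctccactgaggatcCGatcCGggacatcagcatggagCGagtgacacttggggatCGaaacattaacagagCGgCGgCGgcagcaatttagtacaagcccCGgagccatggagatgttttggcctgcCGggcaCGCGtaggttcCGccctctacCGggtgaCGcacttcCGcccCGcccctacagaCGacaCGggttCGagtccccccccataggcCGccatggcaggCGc
Zfp777: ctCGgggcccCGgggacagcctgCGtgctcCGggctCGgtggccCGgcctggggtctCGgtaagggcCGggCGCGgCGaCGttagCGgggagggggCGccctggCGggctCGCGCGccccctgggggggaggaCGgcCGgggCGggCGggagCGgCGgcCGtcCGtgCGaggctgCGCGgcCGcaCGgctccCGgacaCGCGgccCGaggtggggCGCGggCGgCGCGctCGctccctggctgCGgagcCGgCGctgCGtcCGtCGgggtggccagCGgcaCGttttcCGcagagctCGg

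Among members with positive log2FCs, Zfp759, Zfp954, Zfp945 and Zfp932 had the smallest p after Zfp808, and all 4 are KRAB genes. Zfp932 is described with the silencers of retroviral elements. Zfp759, with 19 fingers in the cluster on chromosome 13, had 6.77, 6.57 and 3.06 CPM in H3K9M replicates 1, 3 and 5 and 3.37, 2.39 and 2.95 CPM in H3WT. Replicates 1 and 3 of H3K9M were high and replicate 5 lay within the H3WT range (log2FC 0.91 with SE 0.44, edgeR adjusted p 0.451). Zfp954 had 15.5, 14.2 and 14.3 CPM against 9.88, 12.2 and 10.8 CPM. Its groups did not overlap, and the log2FC was 0.42 (SE 0.21, edgeR adjusted p 0.456). Zfp945 had 9.85, 14.6 and 9.18 CPM against 6.46, 7.32 and 9.48 CPM, where H3K9M replicate 5 lay below H3WT replicate 4 (log2FC 0.53 with SE 0.29, edgeR adjusted p 0.495).

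Among members with negative log2FCs, Zfp839 had the smallest p. It had 6.56, 7.78 and 6.68 CPM in H3K9M replicates 1, 3 and 5 and 10.6, 9.91 and 11.5 CPM in H3WT replicates 1, 2 and 4. Every H3K9M library lay below every H3WT library (log2FC -0.60 with SE 0.24, p 0.0372 before and 0.382 after adjustment in edgeR). No finger of the usual spacing was found in its longest protein model. Zfp703, a repressor of the NET family that acts as an oncogene in breast cancer, had 73.8, 85.0 and 96.73 CPM against 104.7, 126.1 and 96.67 CPM. Its groups overlapped only through H3K9M replicate 5, which lay just above H3WT replicate 4. The log2FC was -0.36 (SE 0.15, p 0.0458 before and 0.400 after adjustment in edgeR), and it was -0.14 with the length and GC offset. Zfp703 overlaps Gm45371 on the opposite strand, and the strand setting of the counting is not given in the sources used here, so reads of both could be mixed.

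Zfp777, Zfp871 and Zfp873 completed this group, and all are KRAB genes. Zfp777 had 32.96, 32.57 and 35.5 CPM in H3K9M and 42.7, 47.7 and 36.9 CPM in H3WT (log2FC -0.33 with SE 0.15, edgeR adjusted p 0.419). Zfp871 had 38.7, 41.4 and 44.3 CPM against 51.3, 46.8 and 50.4 CPM (log2FC -0.25 with SE 0.13, edgeR adjusted p 0.464). In both genes the groups were separate but the gap between the nearest libraries was small. Both were nearer to 0 under the length and GC offset, Zfp777 at -0.15 and Zfp871 at -0.16. Zfp873 had far fewer reads, with 1.14, 1.26 and 1.33 CPM against 2.69, 2.28 and 2.95 CPM. Each H3K9M library held 17 to 26 reads of it and each H3WT library 44 to 50, and the fitted level was 2.12-fold lower (log2FC -1.08 with SE 0.56, edgeR adjusted p 0.466). Zfp811, with the lowest log2FC of the members at -1.27, had 0.134, 1.69 and 0.612 CPM against 1.96, 1.76 and 2.24 CPM, where H3K9M replicate 3 came close to the H3WT libraries (SE 0.92, edgeR adjusted p 0.616).

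**Figure D2:**
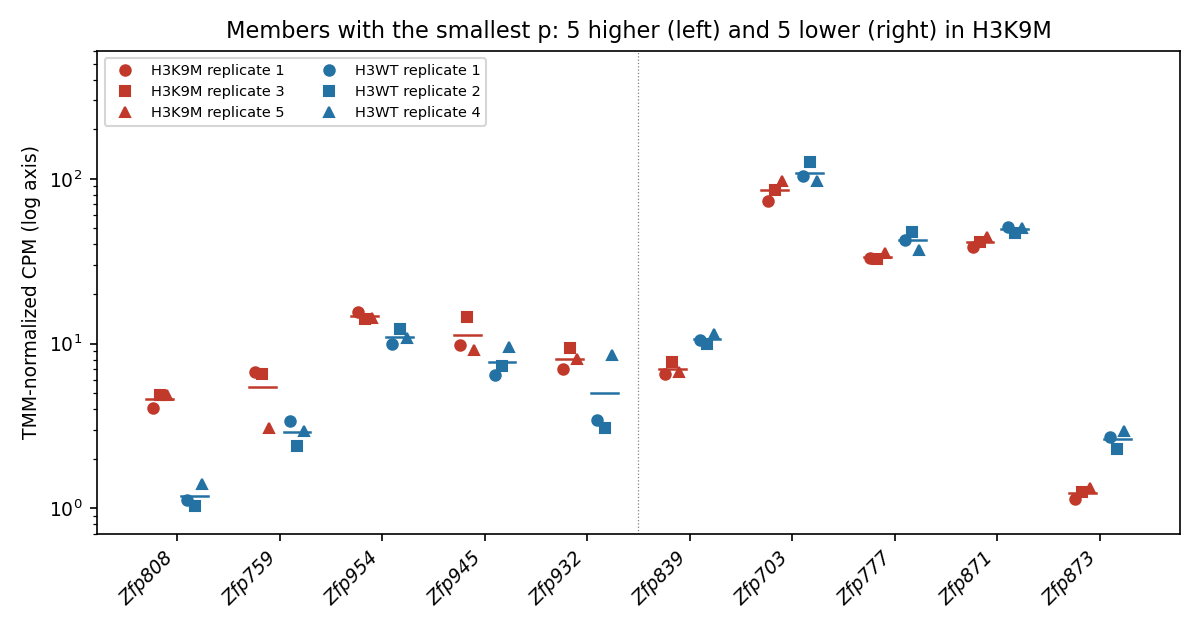
TMM-normalized CPM (log axis) of the 5 members with the smallest p among those higher in H3K9M (left) and the 5 among those lower (right). Red is H3K9M and blue is H3WT, the marker shape gives the replicate, and the short lines are means over 3 libraries. Zfp808 has the widest gap between groups, while Zfp759, Zfp945, Zfp932 and Zfp703 overlap.

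Members known to act on retroviral elements showed no common direction. Zfp809 silences murine leukaemia proviruses in embryonic cells by recruiting TRIM28 to their primer binding site. It had 17.4, 31.4 and 17.1 CPM in H3K9M replicates 1, 3 and 5 and 16.9, 14.4 and 18.7 CPM in H3WT. Replicate 3 of H3K9M alone stood out, and the other 5 libraries overlapped (log2FC 0.40 with SE 0.27, edgeR adjusted p 0.597). The log2FC was 0.06 without that library and 0.14 with the length and GC offset. Zfp932, which represses endogenous retroviruses in embryonic stem cells, had 6.97, 9.37 and 8.01 CPM against 3.42, 3.06 and 8.48 CPM. Its log2FC of 0.70 (SE 0.44, edgeR adjusted p 0.551) was 1.32 without H3WT replicate 4, the 1 control library at the level of the H3K9M libraries, and 0.42 with the length and GC offset or 0.46 without H3WT replicate 2. Its transcript is similar to that of Gm15446. Zfp961, which binds retroviral sequences, had 8.24, 6.57 and 6.94 CPM against 6.46, 3.89 and 5.48 CPM. Those groups were just separate (log2FC 0.46 with SE 0.32, edgeR adjusted p 0.605), and Zfp961 overlaps Cyp4f18 on the opposite strand. Its log2FC was 0.25 with the length and GC offset and 0.29 without H3WT replicate 2. Zfp708, which binds a retroviral element and keeps its DNA methylated in the early embryo, had 1.27, 1.88 and 1.22 CPM against 2.98, 2.23 and 1.65 CPM, with overlap (log2FC -0.64 with SE 0.60, edgeR adjusted p 0.712). It overlaps Rslcan18 and Gm28557 on its own strand. Zfp819, another repressor of retroviral elements in stem cells, was near 0, with 4 reads in H3WT replicate 1 and none in the other 5 libraries.

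The members with other known roles, none of them with a match to the KRAB pattern used here, did not pass the test either. Zfp746 (PARIS), a repressor of the metabolic coactivator PGC-1alpha, had 42.2, 37.7 and 36.3 CPM in H3K9M and 43.4, 43.0 and 52.5 CPM in H3WT. Its groups were separate by a narrow margin (log2FC -0.26 with SE 0.15, edgeR adjusted p 0.508). Zfp768, linked to cell proliferation, had 27.7, 28.2 and 30.4 CPM against 34.1, 32.3 and 38.2 CPM, again separate (log2FC -0.28 with SE 0.15, edgeR adjusted p 0.479). Zfp827, which recruits the NuRD chromatin complex to telomeres, had 42.6, 38.2 and 45.8 CPM against 55.5, 38.6 and 58.0 CPM. There H3WT replicate 2 lay with the H3K9M libraries (log2FC -0.27 with SE 0.18, edgeR adjusted p 0.600). Zfp830, needed for genome integrity in the early embryo, had 21.04, 23.34 and 14.7 CPM against 13.4, 17.6 and 18.3 CPM, with overlap (log2FC 0.26 with SE 0.24, edgeR adjusted p 0.706). Zfp706, which promotes the exit of embryonic stem cells from self-renewal, had 54.9, 53.8 and 57.8 CPM against 56.1, 51.1 and 59.9 CPM. It was the most even of the named members (log2FC -0.004, SE 0.12), and its sign turned with library size alone as the scaling. With the length and GC offset the log2FCs of the others were -0.10 for Zfp746, -0.13 for Zfp768, -0.07 for Zfp827 and 0.02 for Zfp830, each nearer to 0.

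The members with the highest mean level in CPM were Zfp703 (97.2), Zfp740 (70.1), Zfp706 (55.6), Zfp827 (46.4) and Zfp871 (45.5), and these 5 took 27.7% of the summed CPM of all members. CPM is not corrected for transcript length. Per kilobase of the longest transcript the order was Zfp703 with 30.8 CPM, Zfp771 with 19.1, Zfp740 with 16.5, Zfp768 with 12.7 and Zfp706 with 12.6, and none of these 5 has a KRAB match. Zfp740 had 59.8, 64.9 and 80.6 CPM in H3K9M and 66.8, 75.8 and 72.6 CPM in H3WT, a log2FC of -0.07 (SE 0.14, edgeR adjusted p 0.895), and it overlaps Csad on the opposite strand. Most members were scarce. The median mean level of the tested ones was 7.28 CPM and 73 of the 93 lay under 15 CPM, against a median of 24.6 CPM over all genes tested.

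Protein models divided the members into 2 kinds. A KRAB A-box pattern was matched in 81 of 107 (75.7%), against 273 of 20473 coding genes (1.33%). No match was found in 24, and 2 (Zfp783 and Zfp939) had no protein model. A match needed 14 of 18 positions, and the highest score without one was 11, in Zfp746. A diverged KRAB domain could be missed this way, so members without a match are not shown to lack the domain. The KRAB members had a median of 11 fingers and the others 5.5, and the longest rows, in Zfp748 and Zfp788, had 23. The KRAB members were also the less abundant kind, with a median of 6.42 CPM against 24.3 CPM (not corrected for length), and their transcripts held less G and C, with a median of 40.3% against 52.8%.

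The 2 kinds differed in the balance of their log2FCs, and this difference was not tested. Of the 72 tested KRAB members 44 lay above 0 and 28 below, with a median of 0.04. Of the 19 tested members without a match 5 lay above 0 and 14 below, with a median of -0.18. Groups did not overlap in 4 of these 19 (Zfp746, Zfp768, Zfp800 and Zfp839), all lower in H3K9M. Over all genes tested the share without overlap was 19.4% (10.7% higher and 8.68% lower). The other KRAB genes of the table, 167 of 192 tested, stood on the same side as the KRAB members, with 101 above 0, 66 below and a median of 0.10. Summed over members without a match, the level was 516, 537 and 583 CPM in H3K9M replicates 1, 3 and 5 and 611, 594 and 633 CPM in H3WT. Every H3K9M library lay below every H3WT library (545.5 ± 34.3 against 613 ± 19.7 CPM, SD, n = 3 each, ratio 0.890). The nearest were H3K9M replicate 5 and H3WT replicate 2, where Zfp703, the most abundant of these members, held 96.7 and 126.1 CPM. Without that gene the order of these libraries turned, so the separation depended on it. The sum of the KRAB members, 553 ± 63.3 against 535 ± 50.1 CPM with a ratio of 1.03, overlapped. With a length and GC offset these medians moved together, to -0.06 for KRAB members and -0.07 for the others, so that the balance of signs of the KRAB members turned, with 28 of 72 above 0, while that of the others stayed at 5 of 19. The median of the KRAB members was also below 0 without H3K9M replicate 3 (-0.07) or H3WT replicate 1 (-0.02), while that of the others stayed below 0 in the reported fit and all 13 alternatives.

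KRAB genes differed more between the libraries of a group than between the groups. Relative to each gene's mean on the log2 scale, the median KRAB member stood at -0.04, 0.21 and -0.02 in H3K9M replicates 1, 3 and 5 and at -0.15, 0.00 and 0.16 in H3WT replicates 1, 2 and 4. The highest library of each group thus lay above both of the remaining libraries of the other group. The other KRAB genes of the table followed a similar course, with -0.02, 0.27 and -0.03 against -0.09, -0.12 and 0.10. Over all genes tested these medians stayed between -0.002 and 0.02. Of the 93 tested members 28 were highest in H3K9M replicate 3 and 28 in H3WT replicate 4, and 4 in H3K9M replicate 5. H3K9M replicate 3 was also the library with the highest sum of striated muscle markers (127.7 CPM) and of macrophage and blood markers (14.9 CPM), and their part in its KRAB gene levels was not tested.

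**Figure D3:**
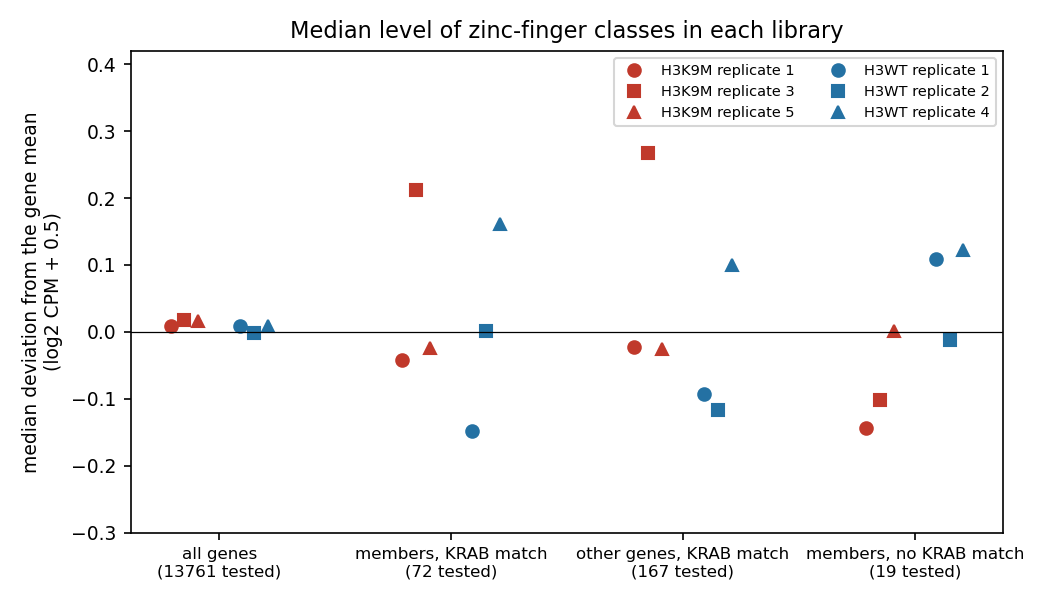
Median deviation of each gene class from the gene's mean over 6 libraries (log2 of CPM plus 0.5), with 1 point per library, red for H3K9M and blue for H3WT, and the marker shape for the replicate. KRAB genes, members or not, are highest in H3K9M replicate 3 and H3WT replicate 4, whereas members without a KRAB match lie lower in H3K9M except for replicate 5, and all genes stay near 0.

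The number of fingers gave a similar division, over partly the same genes. Most tested members with few fingers had no KRAB match, but many tested members without a match had more fingers, up to 20 in Zfp865. Of the 10 tested members with at most 5 fingers 2 had a log2FC above 0, with a median of -0.07. Of the 32 with 6 to 10 fingers 17 lay above 0, with a median of 0.03, and of the 49 with 11 or more 30 lay above 0, with a median of 0.04. The median of the members with few fingers was below 0 in all 14 fits, although 6 of 12 lay above 0 without H3K9M replicate 1. The medians of the other classes changed sign among these fits.

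By position, 44 of the 107 members lay in 6 clusters, each a run of at least 5 members no more than 1 Mb apart. Copies within such clusters are alike in sequence, and their counts are not separate measurements of one condition. The cluster with the most tested members lay on chromosome 17 (chr17:21565816-22867309), where all 10 were KRAB genes and 7 had a log2FC above 0, with a median of 0.15 and a range of -0.31 to 0.55. Its highest members were Zfp947 (0.55), Zfp945 (0.53) and Zfp946 (0.43), and Zfp948 at -0.18 was the one member there whose groups did not overlap. The sign of this median turned in 2 of 14 fits. A second cluster on the same chromosome (chr17:32765496-33033381) had 6 members centred on 0.00, with 3 above and 3 below, and the lowest were Zfp811 and Zfp871.

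In the cluster on chromosome 8 (chr8:69209018-69774911) 5 of 6 members lay above 0, with a median of 0.08, from Zfp930 at -0.17 to Zfp868 at 0.39. In the cluster on chromosome 6 (chr6:47815536-48621548) 5 of 6 lay below 0, with a median of -0.19. That cluster holds Zfp777 and Zfp746, both with separate groups, and Zfp956 at 0.43 was the exception. The signs of these 2 medians held in all 14 fits, but their sizes did not. The median on chromosome 8 was lowest at 0.01 when H3WT replicate 2 was left out, with 3 of 6 members above 0, and highest at 0.45 when H3WT replicate 4 was left out. That on chromosome 6 was -0.32 when H3WT replicate 1 was left out and -0.03 when it was replicate 4, and no single member of either cluster passed the test. The cluster on chromosome 13 (chr13:67038594-67683512) was divided 3 to 3 around a median of 0.05, between Zfp708 at -0.64 and Zfp759 at 0.91, its extremes. Zfp808 lies on the same chromosome but outside it. The cluster on chromosome 2 (chr2:174598682-178078425) had 10 members, of which only 5 passed the filter on low counts, with a median of -0.13. That median was above 0 in 4 of 14 fits and ran from -0.60, with the length and GC offset, to 0.10. Zfp970, the most abundant member of this cluster, was even at 11.3, 11.3 and 11.3 CPM in H3K9M and 9.43, 12.1 and 10.0 CPM in H3WT (log2FC 0.10, SE 0.22). All 9 KRAB members of that cluster have near copies among annotated transcripts, up to 27 in the case of Zfp966.

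**Figure D4:**
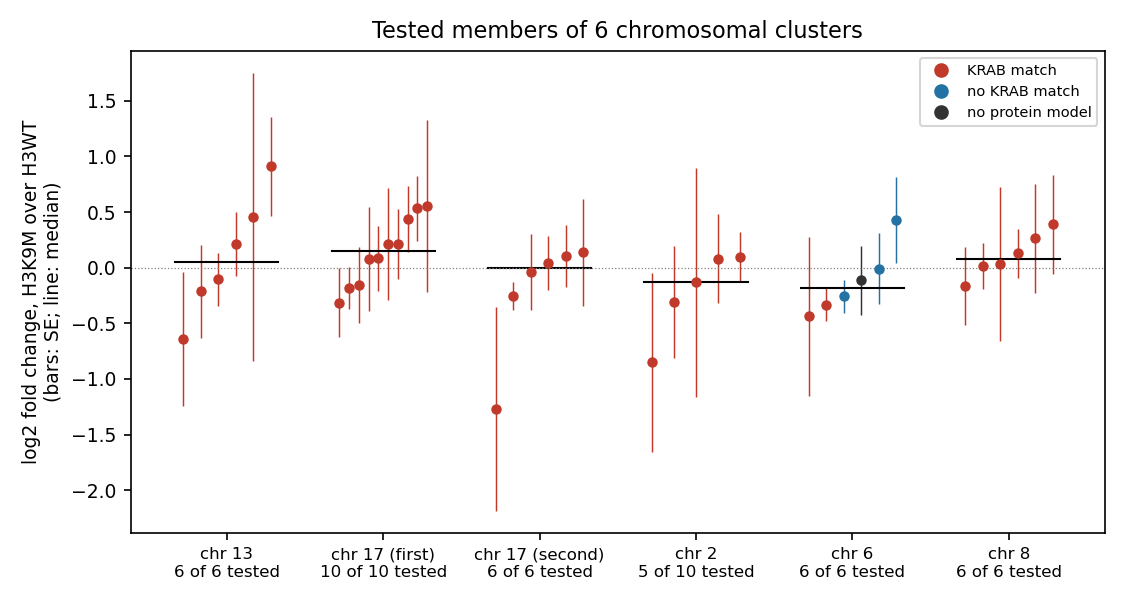
Log2FC (H3K9M over H3WT, with SE bars) of each tested member of the 6 chromosomal clusters, ordered by value within a cluster. Black lines are cluster medians, and red, blue and black points stand for a KRAB match, none and no protein model. In every cluster members lie on both sides of 0, with 5 of 6 below it on chromosome 6 and 5 of 6 above it on chromosome 8.

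Similar sequence limits many of these values. Of the members, 38 had another annotated transcript at least 95% identical over at least 200 bases, and 32 of these were tested. Another gene's exons overlapped 18 tested members on the opposite strand and 14 on the same strand. The 47 tested KRAB members without a near copy had a median of 0.04, with 31 above 0 and 16 below. That balance turned with the length and GC offset (19 above and 28 below, median -0.04) and without H3K9M replicate 3 (21 and 26, -0.07) or H3WT replicate 1 (22 and 25, -0.02), and the median was 0.24 without H3WT replicate 4.

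The 14 members that were not tested had too few reads for a comparison. Zfp735, Zfp936 and Zfp957 had no read in any library, although a count of 0 can still arise by sampling at an expected count as high as 3 reads in a library. Zfp750, a regulator of epidermal differentiation, had 13, 19 and 6 reads in H3K9M replicates 1, 3 and 5 and 3, 6 and 0 reads in H3WT. Zfp973, a KRAB gene of the cluster on chromosome 2 with near copies, had 2, 9 and 16 reads in H3K9M and none in the H3WT libraries. Zfp853 had none in H3K9M and 19, 0 and 17 reads in H3WT replicates 1, 2 and 4. Zfp711, an X-linked gene that works with the histone demethylase PHF8 in neurons, had 3 reads in H3K9M replicate 5 and none elsewhere. The others held at most 22 reads in a library.

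The machinery that KRAB proteins recruit was examined from a list of 32 genes, of which 30 were in the table and all 30 were tested. None passed an adjusted p of 0.05 (edgeR), 10 had a log2FC above 0 and 20 below, and the median was -0.07. It was below 0 in all 14 fits. An unadjusted p under 0.05 was found in 5 of 30, against 12.2% of all genes. Trim28, the corepressor itself, had 247.1, 223.5 and 273.6 CPM in H3K9M and 338, 270.6 and 261.9 CPM in H3WT, with overlap (log2FC -0.23 with SE 0.15, edgeR adjusted p 0.563). Setdb1, the methyltransferase brought by TRIM28, stood at -0.17 (SE 0.17, edgeR adjusted p 0.729).

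The genes for the paired H3K9 methyltransferases GLP and G9a had the smallest p of the list. Ehmt1 had 59.9, 65.7 and 56.1 CPM in H3K9M and 87.7, 84.3 and 79.5 CPM in H3WT (log2FC -0.47 with SE 0.12, edgeR adjusted p 0.227). Ehmt2 had 178.4, 185.3 and 184.0 CPM against 228.3, 246.8 and 216.1 CPM (log2FC -0.34 with SE 0.11, edgeR adjusted p 0.299). In both genes every H3K9M library lay below every H3WT library. An unadjusted p under 0.05 was also found for Uhrf1 (-0.53, SE 0.20), which reads H3K9 methylation for the maintenance of DNA methylation, and for Chaf1a (-0.51, SE 0.21), a subunit of the histone chaperone CAF-1, and in both the groups overlapped. The H3.3 genes H3f3a and H3f3b stood at -0.07 (SE 0.14) and 0.06 (SE 0.11), and the sources used here do not give where transgene reads were assigned.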

How the data were processed

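The 6 chondrocyte libraries were prepared from polyadenylated RNA (Tecan Universal Plus mRNA-Seq, per the labels' protocols). The authors deposited raw read counts per gene symbol. The submitters' processing notes name HISAT2, featureCounts, DESeq2 and build mm10, without versions, and the strand and multiple-mapping settings are not given in the sources used here. The members, gene lists and naming rule were chosen with earlier results of these data known.

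The counts were fitted with edgeR 4.0.16 in R 4.3.3: filterByExpr, TMM scaling and a robust quasi-likelihood fit over all 6 libraries with genotype as the only term, with Benjamini-Hochberg adjustment over 13761 genes and a threshold of 0.05. An exact permutation test of 3 against 3 cannot give a p below 0.1, so none was run. DESeq2 1.42.0 and limma 3.58.1 served as alternatives, beside other scalings, filters, a loess offset (span 0.5) on length and GC content, and leaving out each library. The fit was also run on simulated counts with 200 genes changed, and the outcome is not reported here. Genes were drawn independently, so shifts shared by a gene class within a library were not simulated.

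Length, GC content, fingers (C-x2-C-x12-H-x3 to x5-H) and the KRAB A-box (at least 14 of 18 positions) came from the longest GENCODE M21 model of each symbol, since no protein table was used here, and positions and promoters from RefSeq GRCm38.p6, the same build as mm10. Near copies were found with blastn 2.17.0. Members were named if they had an adjusted p under 0.05, were among the 5 smallest p or 5 highest levels, or had a known role. Zfp811, Zfp853, Zfp948, Zfp970 and Zfp973, the cluster extremes, the non-overlapping members and the neighbours of Zfp808 were named after their values were seen. Of the machinery genes with an unadjusted p under 0.05, 1 is not reported here.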

Additional observations from a re-analysis of the deposited data

How the results depend on the processing

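No paired analysis was possible because the groups share only replicate number 1. Over 13 alternatives the 19 tested members named by the rule gave 247 values, of which 239 kept the direction and the side of the threshold, and the cause of the exceptions was not tested. With DESeq2 1 member passed an adjusted p of 0.05, Zfp808 (log2 fold change 1.95). The sign of Zfp706 turned with limma-voom (0.00083) and library size alone (0.055), and in 4 of the 6 fits without a single library, and over those 6 its value ran from -0.052 to 0.053. That of Zfp740 turned without H3K9M replicate 1, in a range of -0.19 to 0.023. The count at an unadjusted p under 0.05 was 1 with library size alone. When single libraries were left out it ran from 1 (without H3K9M replicate 1 or H3WT replicate 1) to 9 (without H3WT replicate 2), with 6 without H3WT replicate 4. All of these fits called Zfp808 at that level. The median of the KRAB members, leaving out single libraries, ran from -0.074 to 0.236, the highest without H3WT replicate 4. That of members without a match was -0.064 with every gene that had a count, where 23 of them were tested, and -0.073 with the length and GC offset, and it ran from -0.207 to -0.116 when single libraries were left out. Library size alone moved the median of all genes to 0.05 and that of the members to 0.09. The ratio of summed levels stayed between 0.929 and 0.998 over the scalings and the fits without a library, and was not run for the length and GC offset. The medians by KRAB match and of the recruited machinery under each alternative, those by cluster and finger number, and the chondrocyte marker counts, were added after the data were seen. At a median of 7.28 CPM most members had few reads, which limits what a fit over 3 libraries against 3 can detect.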
